A study of Mus musculus with 2 samples.

Results

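The genes described here are 10 members of the epidermal growth factor (EGF) receptor system, out of 31053 genes measured. They are 6 ligands (Areg, Ereg, Hbegf, Tgfa, Epgn and Btc), 3 receptors (Egfr, Erbb2 and Erbb3) and the receptor inhibitor Lrig1. They were chosen by name, and their UMIs (unique molecular identifiers, each standing for 1 captured RNA molecule) were summed over kept cells by library and by the keratin a cell carried. The cells were live, GFP-positive epithelial cells from the corneas of CycB1-GFP mice, a reporter genotype named for cyclin B1, a protein of dividing cells. All cells carried this genotype and had been through the same sort, so there is no untreated or GFP-negative group. Single-cell RNA-seq with 10x 3' v3 chemistry gave 2 libraries of 1 group. The labels used here give no age, sex, number of animals or promoter of the reporter.

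EGF-family ligands are made as membrane proteins and released by cleavage, largely by ADAM17. The ligands studied here bind EGFR, some of them ERBB4 as well, and drive EGFR dimers. Among the partners, ERBB2 binds no EGF-family ligand itself. ERBB3 has little kinase activity but carries docking sites for PI3 kinase. In the cornea this pathway is known for its part in basal cell proliferation and in closing epithelial wounds, and LRIG1 dampens it by promoting receptor turnover.

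Filtering left 3187 cells in library 1, at a median depth of 5571 UMIs, and 3001 in library 2, at 5886. A cell was placed by the share of Krt12 in its Krt12 and Krt15 UMIs. Krt12 is the keratin of corneal epithelium, and Krt15 is abundant at the limbus, the border where corneal stem cells lie. Corneal cells, with a share above 0.8, made up 2304 and 1821 cells. Krt15-rich cells, with a share under 0.4, made up 663 and 959, and 161 and 164 lay between. Of 4 corneal markers that did not set the classes, Aldh3a1, Tkt and Slurp1 followed the name. Aldh3a1 stood at 7443 and 11027 UMIs per 1000000 of the class (CPM) in corneal cells and at 676 and 669 CPM in Krt15-rich cells. Clu did not, at 196 and 85.4 CPM in corneal and 183 and 111 CPM in Krt15-rich cells. The Krt15-rich class carried both limbal and conjunctival markers. Gpha2, a limbal gene, stood there at 687 and 1023 CPM, and Krt19, abundant in conjunctiva, at 235 and 489 CPM, against at most 66.8 and 19.0 CPM in corneal cells. Of the other conjunctival markers, Krt13, Krt4, Krt8 and Muc4 were also higher in Krt15-rich than in corneal cells in both libraries. For Muc4 the levels were 28.5 and 71.1 against 13.1 and 40.2 CPM. Krt6a was lower in Krt15-rich cells in library 1, at 1285 against 1670 CPM, and higher in library 2, at 1303 against 724 CPM. Summed keratocyte and endothelial markers gave at most 4 UMIs in any class. Immune markers reached 194 UMIs in the Krt15-rich cells of library 2, of which Cd74 gave 191, and melanocyte markers 57 and 87 UMIs in corneal cells. The libraries differed in Fos, at 1244 and 427 CPM over kept cells, and in Krt16, at 334 and 90.4 CPM, and 4 barcode sequences occurred among the kept cells of both. With 1 sample per library, differences between libraries have no test. The p-values of fits with library as a block set a class difference only against how far such differences varied between these 2 libraries. That spread was estimated in part from all genes.

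Of the ligands, 4 form one neighbourhood. Epgn, Ereg and Areg on the plus strand and Btc on the minus strand were the only 4 protein-coding genes annotated between positions 91027464 and 91402994 of mouse chromosome 5 (GRCm38), a stretch of 375.5 kb. No other gene but microRNA precursors within Erbb3 and Lrig1 overlapped a member on its own strand. Areg spans chr5:91139599-91148432, Ereg chr5:91074622-91093646, Epgn chr5:91027464-91035215 and Btc chr5:91357261-91402994. The other members lie elsewhere, Tgfa and Lrig1 on chromosome 6, Egfr and Erbb2 on chromosome 11 and Erbb3 on chromosome 10. The promoters of Areg and Epgn are shown because these neighbours went opposite ways between the keratin classes, and because, of the 7 members with a promoter window, Areg alone held 1 of the 2 motifs searched. The sequences are the 250 bases before the RefSeq start site (GRCm38.p6, plus strand, chr5:91139349-91139598 for Areg and chr5:91027267-91027516 for Epgn), and capitals mark the cyclic AMP response element, TGACGTCA.
Areg: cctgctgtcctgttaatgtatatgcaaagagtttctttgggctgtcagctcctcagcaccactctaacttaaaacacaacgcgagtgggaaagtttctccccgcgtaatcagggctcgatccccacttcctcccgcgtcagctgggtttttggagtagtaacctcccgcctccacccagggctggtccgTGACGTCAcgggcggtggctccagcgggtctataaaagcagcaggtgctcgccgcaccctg
Epgn: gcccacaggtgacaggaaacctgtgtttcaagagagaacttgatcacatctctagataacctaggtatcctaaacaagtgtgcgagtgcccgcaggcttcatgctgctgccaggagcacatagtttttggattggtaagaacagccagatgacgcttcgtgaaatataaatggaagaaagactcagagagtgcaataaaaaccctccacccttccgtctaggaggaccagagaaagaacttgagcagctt

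The element began 61 bases before the Areg start. It and the AP-1 motif, TGANTCA, which Fos-containing dimers bind, read the same on both strands and cannot overlap as the same letters. Promoter windows of 300 bases were matched for 7 of the 10 members: 1 held the first motif and 0 held the second. Among 27025 genes with a window, 2.031% held the first and 8.973% the second. A match describes the letters only.

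The ligands were sparse, and this limits what follows. Over kept cells of library 1 and library 2, Hbegf gave 965 and 823 UMIs, Areg 381 and 290, Epgn 172 and 150, and Tgfa 125 and 113. Ereg, with 46 and 66 UMIs, and Btc, with 73 and 90, fell under 100 UMIs in each library and are treated as too sparse for statements on single cells. The receptors and Lrig1 were better covered. Egfr gave 1570 and 1709 UMIs, Erbb2 466 and 547, Erbb3 880 and 818, and Lrig1 702 and 821. No cell held more than 12 UMIs of any member. Among 12 cells with at least 3 immune marker genes, at a median of 2670 UMIs, 9 members had no UMI and Ereg had a UMI in 1 cell. With 12 cells, a count of 0 limits only the cells with a UMI, to 25% (3 counts of 12), and sets no limit on cells that express the gene.

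Between the keratin classes the ligands did not move as a group. Areg, Ereg and Btc were higher in Krt15-rich cells and Epgn was higher in corneal cells, while Hbegf and Tgfa did not pass the test. Of the receptors, Erbb3 alone passed the test and was higher in Krt15-rich cells, and Lrig1 was higher in corneal cells. In edgeR's quasi-likelihood test on sums per library and class, 2 of 10 members were higher in corneal cells, 4 were lower and 4 were not called. Over all 11138 genes tested, 32.5% were called, 15.6% as higher and 16.9% as lower. The members were picked with earlier results of these data known, so nothing particular to them is read from their count. Their median log2 difference was -0.21, beside 0.0055 over all genes tested.

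**Figure D1:**
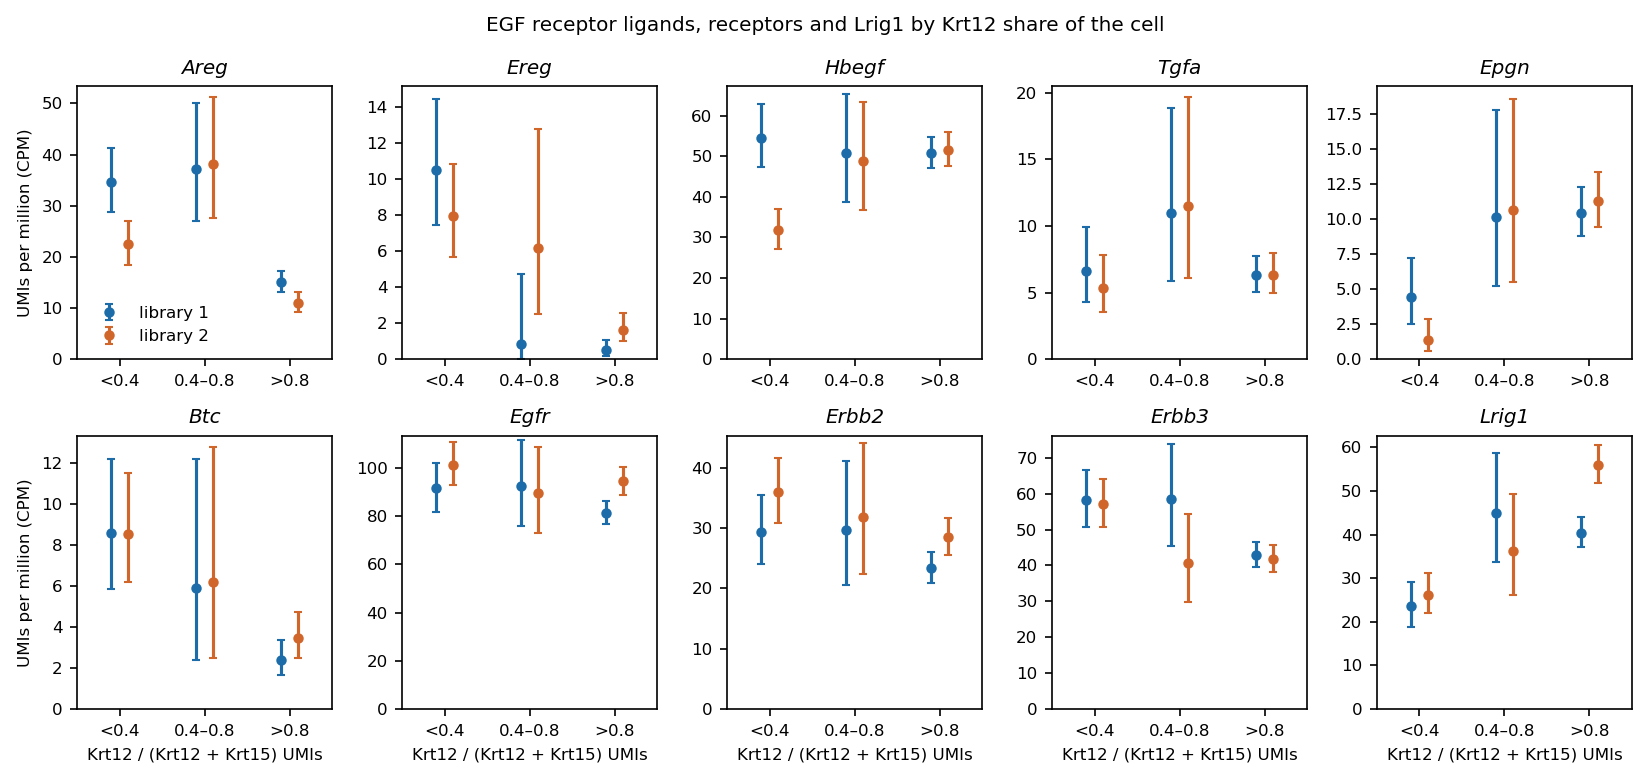
Level of each member, in CPM (linear axis from 0), in cells grouped by their Krt12 share; points are the 2 libraries and bars are exact 95% Poisson intervals of the summed UMIs. Areg, Ereg and Btc are lower above 0.8 than under 0.4 in both libraries, and Epgn and Lrig1 are higher.

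Areg encodes amphiregulin, a low-affinity EGFR ligand of wounded and proliferating epithelia. In library 1 it stood at 34.6 CPM (95% Poisson interval 28.8 to 41.3) in Krt15-rich cells, 37.2 in intermediate cells and 15.02 (13.05 to 17.2) in corneal cells. In library 2 the values were 22.5 (18.5 to 27.0), 38.1 and 11.1 (9.25 to 13.2) CPM. The intermediate cells were thus as high as the Krt15-rich cells in library 1 and above them in library 2, and the corneal cells were lowest in both. The difference of corneal minus Krt15-rich cells was -1.09 on the log2 scale (SE 0.16, adjusted p = 4.38e-06). Intermediate cells had a median of 6431 and 5965 UMIs, against 5002 and 5096 in Krt15-rich cells. They could include doublets of both kinds. Krt16 was also highest in them, at 496 and 224 CPM. It stood at 254 and 64.6 CPM in Krt15-rich cells and at 344 and 89.2 CPM in corneal cells. The part of doublets or of Krt16 in the Areg level of intermediate cells was not tested.

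Ereg encodes epiregulin, a ligand of EGFR and ERBB4. It had 38 and 40 UMIs in Krt15-rich cells, or 10.5 and 7.95 CPM, and 7 and 19 UMIs in corneal cells, or 0.505 and 1.65 CPM. The Krt15-rich level was 20.8-fold higher in library 1 and 4.83-fold in library 2, so the direction was shared but the size was not. The fitted difference of corneal minus Krt15-rich cells was -3.10 (SE 0.46, adjusted p = 3.61e-05). For single libraries no fit was made. Their differences of log2 CPM were -3.67 in library 1 and -2.03 in library 2. A small count added to each sum pulls such differences towards 0 where UMIs are few.

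Btc encodes betacellulin, also a ligand of EGFR and ERBB4. Krt15-rich cells held 31 and 43 UMIs, or 8.59 and 8.54 CPM, and corneal cells 33 and 40 UMIs, or 2.38 and 3.46 CPM. The libraries thus gave similar levels within each class, and the classes did not overlap. The fitted difference was -1.52 (SE 0.31, adjusted p = 0.000214).

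Epgn encodes epigen, a low-affinity EGFR ligand. It had 16 and 7 UMIs in Krt15-rich cells, or 4.43 and 1.39 CPM. In corneal cells it had 144 and 130 UMIs, or 10.4 and 11.3 CPM, and the intermediate cells were as high, at 10.2 and 10.6 CPM. The corneal level was thus alike in the libraries, and the fold differed through the few UMIs of the Krt15-rich class, at 2.35 in library 1 and 8.10 in library 2. The fitted difference was 2.02 (SE 0.34, adjusted p = 3.10e-05).

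Hbegf encodes heparin-binding EGF-like growth factor, a ligand of EGFR and ERBB4 known for corneal wound healing. It was level across the classes in library 1, at 54.6, 50.8 and 50.8 CPM from Krt15-rich to corneal cells. In library 2 it was lower in Krt15-rich cells, at 31.8 CPM, than in the other classes, at 48.7 and 51.6. The fitted difference was 0.31 (SE 0.15, adjusted p = 0.146), which did not pass the test. Among cells with no Krt16 UMI, a setting chosen after the data were seen, it was 0.42 (adjusted p = 0.0312). Tgfa, which encodes transforming growth factor alpha, stood at 6.65 and 5.36 CPM in Krt15-rich cells and at 6.28 and 6.32 CPM in corneal cells. Its difference was 0.11 (SE 0.28, adjusted p = 0.817).

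The receptors were nearly level. Egfr, the receptor of all 6 ligands, stood at 91.4 and 101 CPM in Krt15-rich cells and at 81.2 and 94.4 CPM in corneal cells (difference -0.11, SE 0.10, adjusted p = 0.437). Erbb2 stood at 29.4 and 36.0 against 23.4 and 28.5 CPM (-0.31, SE 0.14, adjusted p = 0.0930). Erbb3, in contrast, stood at 58.2 and 57.2 CPM in Krt15-rich cells and at 43.0 and 41.9 CPM in corneal cells, a difference of -0.42 (SE 0.12, adjusted p = 0.00802). Erbb3 was not called by DESeq2 (adjusted p = 0.221) or without library as a block (adjusted p = 0.165). With every cell thinned to 3000 UMIs, an Egfr UMI was found in 23.1% and 25.7% of Krt15-rich cells and in 22.3% and 23.9% of corneal cells.

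Lrig1, which encodes the receptor inhibitor and is a known stem cell marker of several epithelia, went towards the corneal cells. It stood at 23.6 and 26.2 CPM in Krt15-rich cells, at 44.9 and 36.3 in intermediate cells and at 40.4 and 56.0 in corneal cells. The corneal level was 1.72-fold and 2.14-fold that of the Krt15-rich cells, and the fitted difference was 0.97 (SE 0.15, adjusted p = 4.87e-06). At 3000 UMIs, 6.87% and 7.45% of Krt15-rich cells and 12.2% and 15.6% of corneal cells held an Lrig1 UMI.

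The calls for Areg, Erbb3 and Lrig1 were not kept when fewer Krt15-rich cells were counted. Without the Krt15-rich cells that held a UMI of the conjunctival keratins Krt19, Krt13 or Krt4, 243 and 309 of 663 and 959 cells remained in that class. This setting was chosen after the data were seen. Corneal cells with such a UMI stayed in, and all UMIs of a cell were used, so the filter was not made at equal depth. The difference of corneal minus these cells was then 0.083 for Areg (adjusted p = 0.876), 0.044 for Erbb3 (adjusted p = 0.891) and 0.45 for Lrig1 (adjusted p = 0.0738). Epgn was the 1 member still called (1.76, adjusted p = 0.0491), and Ereg and Btc were no longer tested.

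Split by those markers at 3000 UMIs per cell, the Krt15-rich class showed the same order in both libraries for 5 members, Areg, Ereg, Hbegf, Btc and Erbb3. Cells with Gpha2 and none of the conjunctival keratins (209 and 276 cells) had 17.5 and 3.40 CPM of Areg. Cells with both kinds of marker (203 and 370) had 28.6 and 21.3 CPM, and cells with the conjunctival keratins and no Gpha2 (128 and 132) had 68.3 and 47.0 CPM. For Areg the outer classes did not overlap. Hbegf went from 41.4 through 59.7 to 73.1 CPM in library 1 and from 23.8 through 26.1 to 52.9 CPM in library 2. Erbb3 stood at 50.6 and 36.0 CPM with Gpha2 alone and 77.9 and 83.4 CPM with the conjunctival keratins alone. Btc rested on few UMIs, 6 and 4 against 11 and 12, at 5.52 and 2.72 against 13.2 and 14.1 CPM, and so did Ereg, 8 and 7 against 10 and 13, at 7.36 and 4.76 against 11.98 and 15.3 CPM. Lrig1 did not climb. It stood at 29.4 and 28.6 CPM with Gpha2 alone, at 14.7 and 22.1 with both kinds and at 19.2 and 24.7 with the conjunctival keratins alone. The intervals of these classes overlapped in both libraries. Cells with neither kind of marker (71 and 27) had 35.5 and 33.9 CPM of Lrig1, on only 15 and 5 UMIs. These levels lay above the other classes in both libraries, but their intervals included the levels with Gpha2 alone. The order of these classes is therefore not settled. This split was made after the values were seen and has no test.

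**Figure D2:**
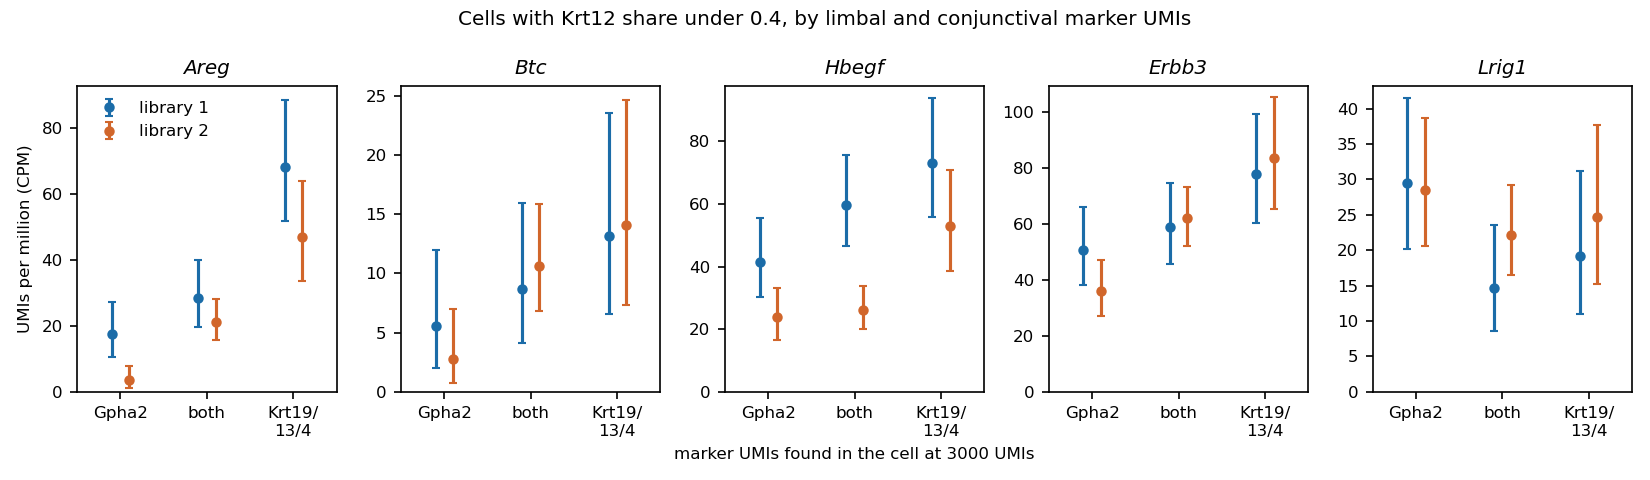
Levels of 5 members in Krt15-rich cells (Krt12 share under 0.4), in CPM, by whether the cell held a UMI of Gpha2 only, of both Gpha2 and a conjunctival keratin (Krt19, Krt13 or Krt4), or of a conjunctival keratin only; points are libraries and bars exact 95% Poisson intervals. Areg, Btc, Hbegf and Erbb3 climb from the first to the last class in both libraries, and Lrig1 does not. Cells with neither kind of UMI are not shown.

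Other genes of the pathway were read from a list of 46, of which 40 were tested between the keratin classes: 8 were higher in corneal cells, 6 were lower and 26 were not called. As over all genes tested 15.6% were higher and 16.9% lower, the share of calls was near that of genes at large and is not a result about the pathway. Their median difference was -0.0069, beside 0.0055 over all genes tested. The higher ones included ligands of ERBB3 and ERBB4, namely Nrg1 (26.3 and 17.1 CPM in Krt15-rich, 66.4 and 83.8 CPM in corneal cells, log2 difference 1.85) and Nrg2 (1.90). They also included Etv5, a transcription factor known as a target of ERK signalling. It rose from 3.88 and 2.58 CPM to 11.99 and 14.03 CPM in corneal cells (2.07), and Etv4 was higher by 0.91. Dusp6, a phosphatase of ERK, was higher by 1.19, Spred1 by 1.27 and Spry2 by 0.57, both inhibitors of the pathway, and the kinase Braf by 0.89.

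Of the lower ones, Phlda1, a growth-factor-induced gene, stood at 236 and 173 CPM in Krt15-rich and 83.4 and 78.8 CPM in corneal cells (difference -1.30). Cblb, a ubiquitin ligase that acts on receptors, differed by -1.24. Rhbdf2, which carries ADAM17 to the cell surface, differed by -0.61, close to the threshold (adjusted p = 0.0495 in edgeR's quasi-likelihood test). Rhbdf1, also on the list, lay on the other side and was not called (0.44, adjusted p = 0.0509). Adam17 itself differed by -0.38, Lrig3 by -0.39 and Hras by -0.29.

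Within corneal cells the members were related to Fos, a subunit of the AP-1 transcription factor and an immediate early gene, and to Krt16, a keratin of wounded and stressed epithelium. Only cells with at least 3000 UMIs were used (1895 and 1497), each thinned to 3000 UMIs to set its class, and all UMIs were used for the levels. Fos was found in 82.8% and 63.0% of these cells, and Krt16 in 14.4% and 6.41%. Cells high in Fos differed in Krt16 from those low in Fos by -2.17 on the log2 scale (SE 0.15, adjusted p = 0.000204), and Fos-high cells were 15.02% and 12.5% of those with Krt16 but 27.7% and 24.1% of those without. Across single cells Pearson's r of Fos with Krt16 was -0.095 and -0.086.

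No member passed the test along Fos. Cells high in Fos (above 6 thinned UMIs in library 1 and above 2 in library 2, 491 and 350 cells) were compared with cells low in Fos (at most 2 in library 1 and 0 in library 2, 721 and 554 cells). Of 10358 genes tested 0.83% were called, 0.425% as higher and 0.405% as lower. Of the 9 members tested, all but Ereg, 0 were called by edgeR's quasi-likelihood test. Unadjusted p from that test was under 0.05 for 2 of them and for 1154 of all genes tested. DESeq2 called 0 members too. None of the 40 pathway genes tested was called either.

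The members with the smallest p along Fos were Hbegf and Areg, in opposite directions. Hbegf stood at 54.6 and 54.3 CPM in Fos-high cells and at 38.5 and 45.0 CPM in Fos-low cells (0.42, SE 0.13, adjusted p = 0.269). From 0 Fos UMIs through 1 to 2 and 3 to 5 up to 6 or more, Hbegf went from 31.6 through 43.7 and 50.6 to 56.5 CPM in library 1. In library 2 the same steps gave 45.0, 56.5, 55.7 and 49.9 CPM, with no steady climb. Areg stood at 9.73 and 8.99 CPM in Fos-high and 15.6 and 14.99 CPM in Fos-low cells (-0.68, SE 0.23, adjusted p = 0.297).

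With Krt16 held at 0, these values changed. Among cells with no thinned Krt16 UMI, Hbegf stood at 54.1 and 53.1 CPM in Fos-high and at 34.5 and 38.9 CPM in Fos-low cells, a difference of 0.58 (SE 0.14) that passed the test (adjusted p = 0.0178). Areg was then 5.94 and 8.92 against 8.42 and 3.22 CPM, opposite in the libraries, with a fitted difference of 0.36 (adjusted p = 0.823). In all Fos-high against all Fos-low cells, the other members differed by -0.61 (Btc) to 0.16 (Lrig1), with adjusted p of 0.614 to 0.985 for all 7.

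Along Krt16 the ligands Areg and Hbegf were higher. Corneal cells with at least 1 thinned Krt16 UMI (273 and 96 cells) were compared with those without (1622 and 1401). Of 11010 genes tested 1.34% were called, 1.07% as higher and 0.263% as lower. Of the 9 members tested, Areg and Hbegf were called higher and 0 lower, and the members' median difference was 0.96, beside -0.0055 over all genes. Unadjusted p of edgeR's quasi-likelihood test was under 0.05 for 6 members and for 1499 of all 11010 genes tested. Ereg, with 3 UMIs in all in the cells with Krt16, was not tested.

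**Figure D3:**
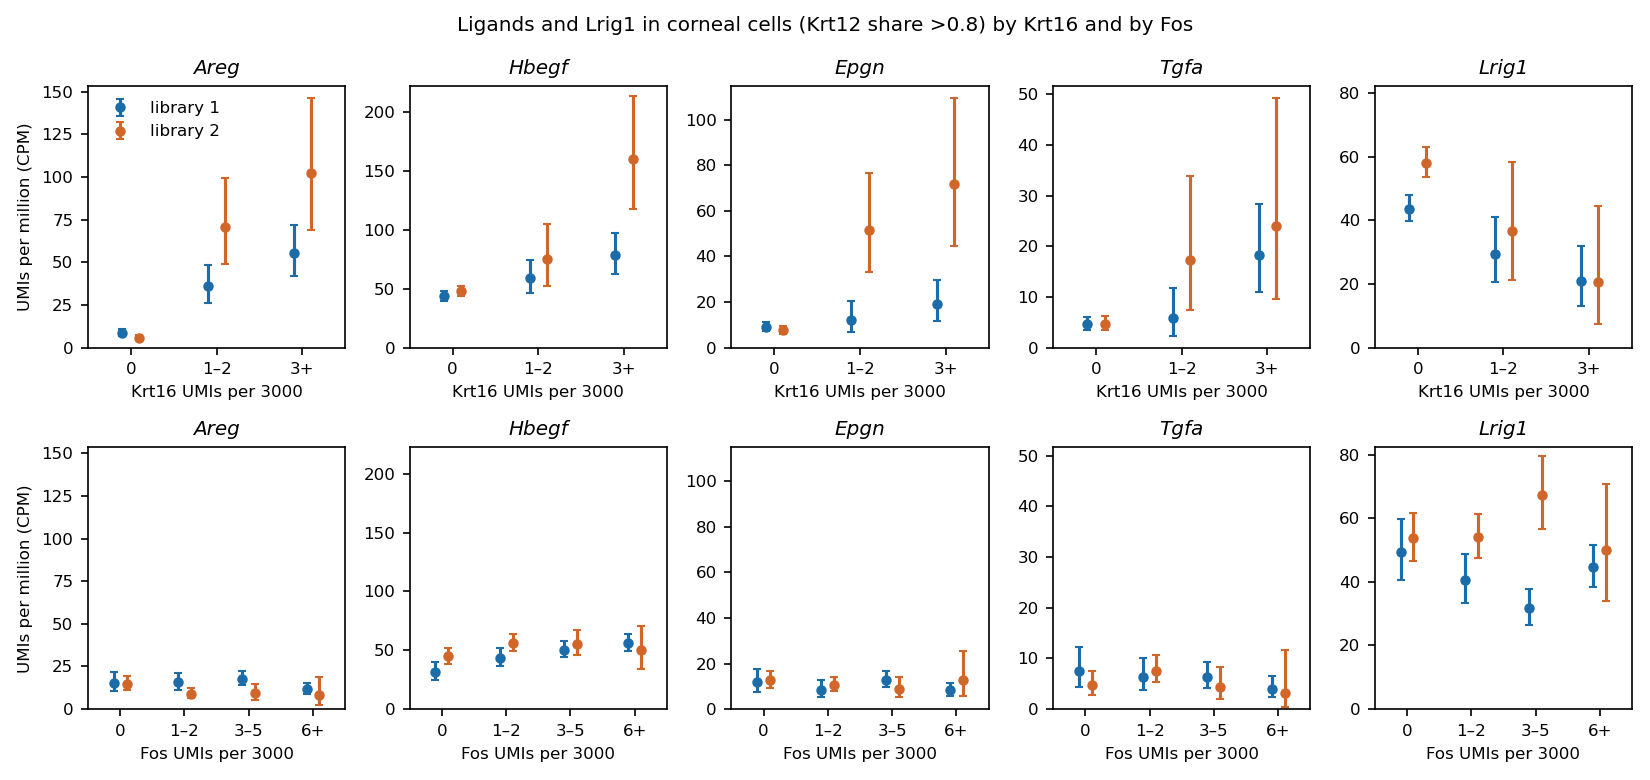
Levels of 4 ligands and Lrig1, in CPM, in corneal cells grouped by thinned Krt16 UMIs (upper row) and thinned Fos UMIs (lower row); points are libraries, bars exact 95% Poisson intervals, and both panels of a gene share 1 axis. Areg goes from 8.75 and 5.69 CPM with no Krt16 to 55.5 and 102 CPM with 3 or more Krt16 UMIs, while no such climb is seen along Fos.

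Areg differed most among the members. In cells without Krt16 it stood at 8.75 CPM (95% Poisson interval 7.08 to 10.7, 95 UMIs) in library 1 and 5.69 (4.32 to 7.36, 58 UMIs) in library 2. In cells with Krt16 it stood at 45.1 (36.8 to 54.7, 102 UMIs) and 83.1 (63.9 to 106, 63 UMIs) CPM. Cells with Krt16 thus held more Areg UMIs than all the others in both libraries, though they were 14.4% and 6.41% of the cells. The level was 5.15-fold and 14.6-fold higher, with a fitted difference of 3.12 (SE 0.34, adjusted p = 0.00290).

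The Areg level grew with the Krt16 step, from 8.75 through 36.1 to 55.5 CPM at 0, 1 to 2 and 3 or more Krt16 UMIs in library 1, and from 5.69 through 70.9 to 102 CPM in library 2. Cells low in Fos had 43.1 and 119 CPM of Areg with Krt16 and 8.42 and 3.22 without. Cells high in Fos had 43.5 CPM with Krt16 in library 1, as much as those low in Fos, and 11.1 CPM on 1 UMI in library 2, and 5.94 and 8.92 CPM without Krt16. Across single cells, Pearson's r of Areg with Krt16 was 0.24 over 1895 cells and 0.28 over 1497, and with Fos -0.011 and -0.034. These cells share a library each, and most hold 0 UMIs of Areg.

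Hbegf stood at 68.1 and 108 CPM with Krt16 and at 43.7 and 47.8 CPM without, with no overlap between the classes (0.96, SE 0.19, adjusted p = 0.0433). By Krt16 step it went from 43.7 through 59.1 to 78.5 CPM in library 1 and from 47.8 through 75.2 to 161 CPM in library 2. The Hbegf call was close to the threshold. DESeq2 gave an adjusted p of 0.120, cells under 10% mitochondrial UMIs 0.0609, and cells with a UMI of Mki67, Top2a or Ccnb1 0.0554. Without library as a block neither ligand was called, at adjusted p of 0.157 for Areg and 0.409 for Hbegf, with nearly the same differences (3.15 and 0.98).

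The other ligands lay on the same side without passing the test. Tgfa stood at 11.5 and 19.8 CPM with Krt16 and 4.60 and 4.71 without (1.72, SE 0.39, adjusted p = 0.0724). Epgn was uneven between the libraries, at 15.5 and 59.4 CPM with Krt16 and 9.21 and 7.55 without (1.93, SE 0.53, adjusted p = 0.188). Btc had 11 and 8 UMIs in cells with Krt16 (1.58, SE 0.53, adjusted p = 0.213). When 3 or more Krt16 UMIs were asked for, chosen after the data were seen, Tgfa (2.20, adjusted p = 0.00440) and Epgn (2.18, adjusted p = 5.18e-05) were called too.

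The receptors were about level along Krt16 in the fit. Egfr differed by -0.015 (SE 0.19), Erbb2 by 0.14 (SE 0.26) and Erbb3 by -0.047 (SE 0.23), with adjusted p of 0.882 to 0.989. In each of the 3 the libraries went opposite ways, as for Erbb3 at 48.2 and 26.4 CPM with Krt16 and 42.1 and 43.0 without. Lrig1 was lower with Krt16 in both libraries, at 25.6 and 30.3 against 43.7 and 58.1 CPM, without passing the test (-0.76, SE 0.20, adjusted p = 0.124). With 3 or more Krt16 UMIs it was at 21.1 and 20.5 CPM and was called lower (-1.12, adjusted p = 0.0445).

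**Figure D4:**
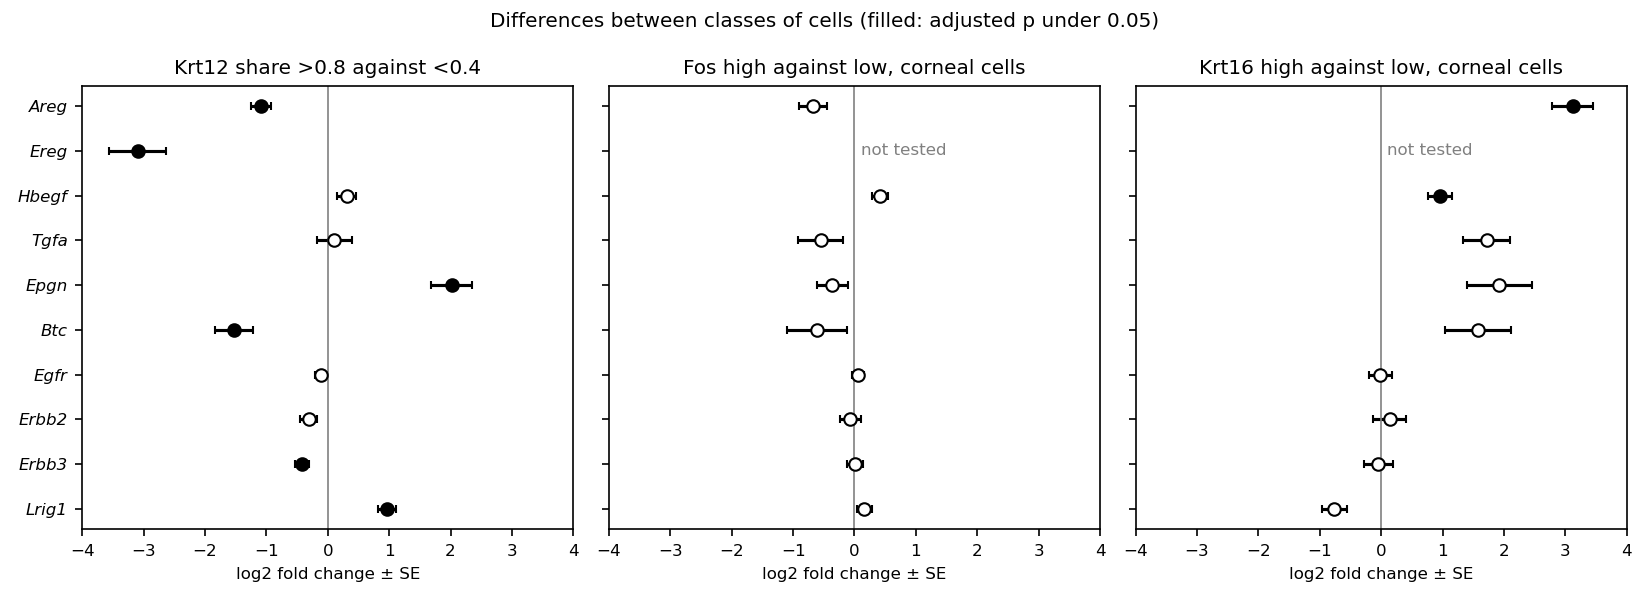
Log2 difference and its standard error for each member in the 3 comparisons, from fits with library as a block; filled points passed an adjusted p of 0.05. Areg is lower in corneal than in Krt15-rich cells (-1.09) and higher in corneal cells with Krt16 than in those without (3.12), and no point is filled along Fos.

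Other features moved with Krt16. The cells with Krt16 were deeper, at a median of 7769 and 7291 UMIs against 6142 and 6654, and within cells of 3000 to 8000 UMIs Areg and Hbegf were again both called. Krt6a, the usual partner of Krt16, stood at 5089 and 2997 CPM against 991 and 565. The summed limbal markers stood at 14748 and 9101 against 6488 and 3931 CPM, most of it Krt14 (13165 and 7746 against 5479 and 3104 CPM), while Gpha2 was at 41.1 and 47.5 against 38.5 and 67.0 CPM. The summed conjunctival markers, most of them Krt6a, stood at 5303 and 3179 against 1098 and 715. Summed proliferation markers (Mki67, Top2a and Ccnb1) were lower, at 1273 and 1404 against 1906 and 2026 CPM. Immune markers gave 2 UMIs in each library in the cells with Krt16. Apart from depth and proliferation, their part in the result was not tested.

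None of the 40 pathway genes tested along Krt16 was called, and their median difference was -0.054. Phlda1 (107 and 120 CPM with Krt16, 74.4 and 74.8 without) and Dusp5, another ERK-induced phosphatase (11.9 and 9.23 against 3.41 and 2.06), were nearest, each at an adjusted p of 0.0735. Etv5, called between the keratin classes, stood at 7.51 and 7.92 CPM with Krt16 and 12.9 and 14.1 without (adjusted p = 0.381). Of the ligands only Hbegf was found in at least 5% of thinned corneal cells in both libraries, at 11.3% and 12.7%. Over those cells, the 5 genes of 5867 most like it by mean Pearson's r were Krt6b (0.19), Krt6a (0.19), Sfn (0.16), Gsto1 (0.15) and Krt16 (0.15). Krt6a and Krt6b are near-identical, and how their reads were divided is not given in the sources used here.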

How the data were processed

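The authors deposited 1 matrix of whole-number UMI counts per gene and barcode, written by 10x software, per the file headers. The submitters' processing notes name Cell Ranger 3.1.0, Seurat 5.0.0 and the builds GRCm38 and mm10. Barcode endings gave library 1 and library 2, and which of the labelled replicates each is was not given in the sources used here. The matrix held 19001107 and 18030874 UMIs in 3458 and 3294 barcodes.

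Cells with at least 500 genes and under 20% mt- UMIs were kept. Scrublet (scanpy 1.11.5) marked 5 of 6188 cells (0.0808%), too few to have worked, so doublets remain. Classes needed at least 5 Krt12 plus Krt15 UMIs, and 36 and 29 cells lay within 0.05 of the limit 0.4 and 73 and 78 within 0.05 of 0.8. For Fos and Krt16, cells were thinned to 3000 UMIs with a fixed seed. Cells at or under the lower tercile of Fos in their library were compared with those above the upper one, and ties made these classes unequal (721 and 491 cells in library 1, 554 and 350 in library 2). For Krt16 the upper limit was 0 UMIs, so its classes were any UMI against none. Intervals are exact 95% Poisson or Clopper-Pearson intervals and cover counting error only. The UMI counts of each gene were added up within a library's class, and the sums were compared by the robust quasi-likelihood test of edgeR 4.0.16 (R 4.3.3) after TMM scaling and filterByExpr. Library was a block, since sums of the same library share 1 sample. The keratin fit had 6 sums and 2 residual degrees of freedom, and the others 4 sums and 1. Genes that set the classes were not tested. Adjusted p-values are Benjamini-Hochberg values over all genes tested, with a threshold of 0.05. DESeq2 1.42.0, other size factors, filters, depths and class limits were alternatives. The fits were run on simulated sums with 200 genes changed by 1 on the log2 scale, alike in both libraries. They called 86% of these between the keratin classes, 83% along Fos and 68.5% along Krt16, with 11, 5 and 9 false calls. Class differences that vary between libraries were not simulated. Named genes were the 10 members, genes of the pathway list past the threshold and the 5 genes most like each ligand found in at least 5% of cells. Pathway genes named without passing the test were added after their values were seen. Members, lists and alternatives were chosen with earlier results of these data known.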

Additional observations from a re-analysis of the deposited data

How the results depend on the processing

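Without library as a replicate block, the genes called fell from 3622 to 1551 between the keratin classes, from 86 to 0 along Fos and from 147 to 1 along Krt16, where 0 members were then called higher. DESeq2 called 1776, 40 and 90 genes. With DESeq2 size factors in edgeR, 57 genes were called along Fos and 227 along Krt16, and with no filter on low sums 320 and 590. Without the highest 3% of Scrublet scores the counts were 157 and 331. Along Fos, any UMI against none gave 37 genes, and cells without Krt16 gave 157 genes and 1 member higher. Along Krt16, thinning to 2000 UMIs gave 697 genes, 3 or more UMIs 532 and cells of 3000 to 8000 UMIs 242. Members called higher along Krt16 were 4 with no filter, with thinning to 2000 and with 3 or more UMIs, and 1 under 10% mitochondrial UMIs and among cells with proliferation markers. Members called lower were 1 with no filter and 1 with 3 or more UMIs. Without the Krt15-rich cells holding conjunctival keratins, 1 member was higher and 0 were lower in corneal cells. The causes of these shifts were not tested.

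Signs also turned, for Areg and Erbb3 between the keratin classes (0.083 and 0.044 without conjunctival keratins, called in the opposite direction with them) and otherwise for values that passed the test under neither setting. Along Fos, Erbb3 was -0.00060 with no filter, -0.0027 without high Scrublet scores, -0.0047 at 2000 UMIs, -0.10 in another random draw and -0.19 for any UMI. For any UMI, Tgfa was 0.035, Egfr -0.17 and Lrig1 -0.060. Erbb2 was 0.0026 at 2000 UMIs and Areg 0.36 without Krt16. Along Krt16, Egfr was 0.014 by DESeq2, 0.013 without the block, 0.0070 without high Scrublet scores, 0.090 in cells at or under the Fos median, 0.048 for 3 or more UMIs and 0.069 at 3000 to 8000 UMIs. At 2000 UMIs, Erbb2 was -0.0012 and Erbb3 0.017. Single libraries gave differences of log2 CPM with no fit or test, where a small added count pulls differences on few UMIs towards 0. Along Krt16 these were 2.35 to 3.83 for Areg, 0.66 to 1.22 for Hbegf and 0.76 to 2.96 for Epgn. Between the keratin classes they were 1.22 to 2.78 for Epgn and -0.052 to 0.73 for Hbegf. Under the settings with a test, Areg along Krt16 was called in all but the one without the block. The setting of any Krt16 UMI against none held the same cells as the main comparison and is no separate check. Other settings changed the cells little. Of 1622 and 1401 cells without Krt16, the stricter mitochondrial limit left 1621 and 1398 and the higher minimum of genes 1621 and 1400. Both left all 273 and 96 cells with Krt16. Settings with 3 or more Krt16 UMIs, with 3000 to 8000 UMIs, with proliferation markers and with another draw were chosen after seeing the data. So were, between the keratin classes, those without Krt16 and without conjunctival keratins. The setting along Fos without Krt16 was planned.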

Other observations

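Corneal cells with no UMI of Mki67, Top2a or Ccnb1 at 3000 UMIs, few in a sort for a cyclin B1 reporter (126 and 97 cells), held more Hbegf than the 1769 and 1400 cells with such a UMI. Hbegf, the heparin-binding ligand, stood at 79.7 CPM (95% Poisson interval 61.2 to 102) and 124 CPM (97.1 to 157), against 45.9 and 48.0 CPM. Epgn stood at 22.8 CPM (13.5 to 36.0) against 9.49 in library 1 and at 19.3 CPM (9.62 to 34.5) against 10.7 in library 2, on 18 and 11 UMIs, and the second interval spans the lower value. Areg stood at 43.0 CPM (29.8 to 60.1) against 13.2 in library 1, and at 15.8 CPM (7.21 to 29.9) against 10.8 in library 2, where the interval spans the lower value too. Lrig1 stood at 29.1 and 43.8 against 41.3 and 56.8 CPM, within its intervals (18.4 to 43.7 and 28.3 to 64.6). These classes were chosen after the values were seen and have no test. They also differed in Krt16. Of corneal cells with Krt16, 240 of 273 and 84 of 96 held a UMI of Mki67, Top2a or Ccnb1. Of those without Krt16, 1529 of 1622 and 1316 of 1401 did. The part of Krt16 in these levels was not tested.

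Few thinned corneal cells held UMIs of 2 ligands. Areg and Hbegf shared 18 cells in library 1 and 11 in library 2, where the product of their shares gives 7.34 and 3.81. Areg and Epgn shared 3 and 2 cells, beside 1.68 and 0.862. Hbegf and Epgn shared 8 and 8, beside 5.53 and 5.46. Other pairs lay on either side: Hbegf and Tgfa shared 3 and 6, beside 3.27 and 3.05, and Tgfa and Epgn 1 and 0, beside 0.750 and 0.689.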
